A study of Mus musculus with 12 samples.

Results

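The mouse genes for 5S ribosomal RNA were described in RNA from wild-type and Drosha-deficient embryonic stem (ES) cells. The copies were all rows of the expression tables whose gene name starts with n-R5s. There were 111 such rows among 36883, the same in the tables of mRNA, long RNA and short RNA. ES cells are pluripotent cells grown from the early mouse embryo. Drosha is the ribonuclease of the nucleus that releases precursor hairpins from primary microRNA transcripts.

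The design compared wild-type with Drosha-deficient ES cells, both kept in medium with serum and leukemia inhibitory factor, in 3 RNA fractions with 1 library per genotype and fraction. The mRNA was selected with oligo-dT, and a kit for small RNA isolation divided long from short RNA. The labels name total RNA and no long RNA, so the table of long RNA was taken as the samples titled total RNA by elimination. The RNA labels give genotype and cell type but no strain, line or clone. The methylation samples of the same genotypes are labelled as AB1 cells of the 129Sv/Ev background, with the Drosha-deficient cells derived from AB1. How Drosha was removed, and whether the deficient cells are 1 clone, the labels do not say. RNA of Dnmt1-deficient cells and the methylomes were not analysed here. Since each library stands alone, the differences below have neither a replicate check nor a p-value.

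5S rRNA is the smallest RNA of the large ribosomal subunit. It is made by RNA polymerase III from a promoter inside the gene, which the factor TFIIIA binds first, and it is not polyadenylated as a rule. Before it joins the ribosome it is carried by TFIIIA and then by the ribosomal proteins Rpl5 and Rpl11, and this particle can also bind Mdm2, the ubiquitin ligase that holds p53 down. Mammalian genomes hold 5S genes in a tandem array and many scattered copies, a large part of them pseudogenes.

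The 111 copies lay on 21 chromosomes, with 12 on X as the largest number on one chromosome. All 111 had an Ensembl identifier in the gene name table, and 24 were listed by symbol in the RefSeq table for GRCm38.p6. RefSeq classes 10 of those 24 as rRNA and 14 as pseudogenes, and 22 of the 24 are 119 bases long. The other 87 had no RefSeq entry of their name. RefSeq lists 45 further n-R5s genes, 41 of them on chromosome 8 between positions 123538784 and 123622046. None of the 45 has a row of its own in the deposited data, so the sums below do not include them. In the deposited data 72 copies stood alone at their locus, and 39 shared a locus with at least 1 other gene. The 72 lone loci were 82 to 124 bases long with a median of 118, and 24 of them were 119 bases. For 78 copies a position of their own was known, and 60 of these lay outside every other gene in the RefSeq table.

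The libraries were first checked against their labels. Drosha stood at 42.1 FPKM in wild-type and 6.22 FPKM in Drosha-deficient mRNA, and at 21.2 and 4.34 FPKM in long RNA. FPKM are fragment counts divided by the length of the transcript and the size of the library. All 8 ES cell markers were measured in mRNA and none differed by 2-fold, with sums of 2283 and 2370.4 FPKM. Of 6 fibroblast markers 4 were lower in Drosha-deficient mRNA and none was higher (sums 272 and 99.8 FPKM), and 5 were lower in long RNA (155 and 56.4 FPKM). Of 5 primitive endoderm markers 2 were measured in mRNA. Dab2 was lower, at 5.54 and 1.45 FPKM. Gata4 was called neither, with the larger value in Drosha-deficient cells (0.855 and 2.45 FPKM). The sums of the 5 were 7.09 and 4.38 FPKM, most of it from Dab2 in wild type. The part of these other cell types in the values below was not tested. The estimated depth was about 23000000 and 26100000 fragments in mRNA (wild type and Drosha-deficient), 19300000 and 23300000 in long RNA, and 2700000 and 3200000 in short RNA.

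In the mRNA fraction most of the 5S copies that were seen had more signal in Drosha-deficient cells. Of the 111 copies, 59 were listed at 0 in both libraries and 52 were above 0. Of those 52, 47 had the larger value in the Drosha-deficient library and 5 in the wild-type library. A total of 28 copies were above 0 in both libraries, 20 in the Drosha-deficient library only and 4 in the wild-type library only. Summed over the 111 copies, the level was 699 FPKM in wild-type and 2703 FPKM in Drosha-deficient mRNA, which is 3.86-fold higher and a log2 ratio of 1.95. The family made up 0.141% of the summed FPKM of all rows in wild type and 0.521% in Drosha-deficient cells. In bulk samples a shift in the kinds of cells and a shift in RNA per cell cannot be told apart.

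A copy was taken as measured when it reached 1 FPKM in either library and carried the authors' status OK. The call was higher or lower, always for Drosha-deficient against wild-type cells, at a log2 difference of at least 1 in size, which is 2-fold, after adding 1 FPKM to both values. Of the 45 measured copies, 37 were higher (82.2%), 3 were lower (6.67%) and 5 were neither. Over all 14752 measured rows, 8.64% were higher and 7.93% were lower. The log2 differences of the measured copies ran from -1.35 to 4.24, with quartiles of 1.31 and 2.51 and a median of 1.80, against a median of 0.01 over all rows. A copy that reached 1 FPKM only in the Drosha-deficient library could not come out lower, only higher or neither. Among the 25 copies that reached 1 FPKM in the wild-type library, 19 were higher and 3 lower, their median being 2.22, beside 6.65% and 8.38% of all rows chosen that way.

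**Figure D1:**
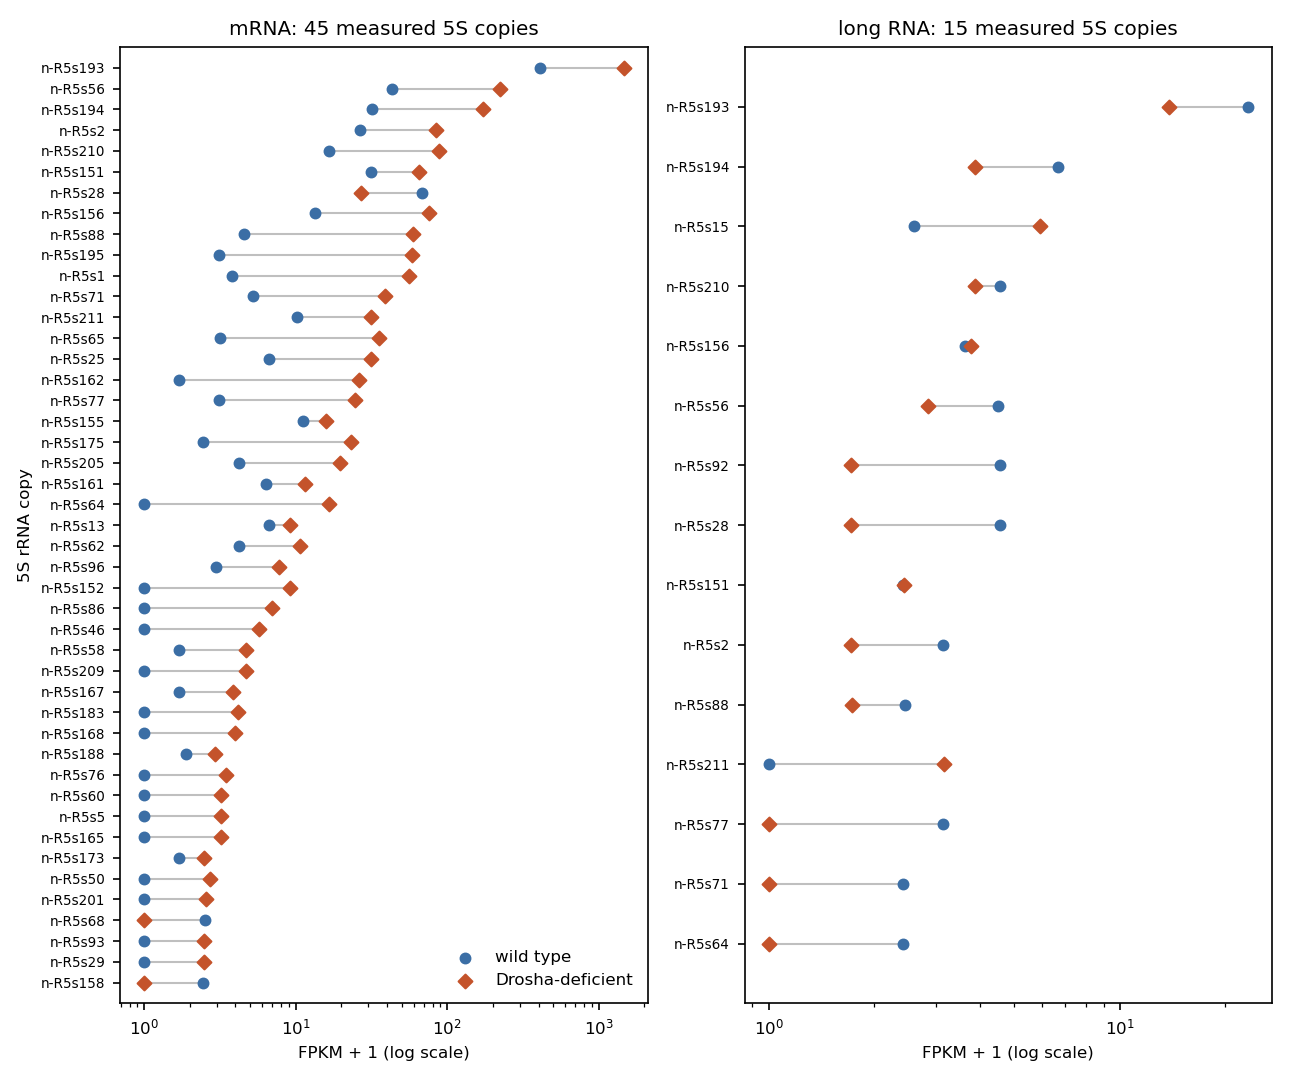
Level of each measured 5S copy (FPKM + 1, log axis) in the wild-type library (circles) and the Drosha-deficient library (diamonds), for mRNA on the left and long RNA on the right, 1 library per point. In mRNA 37 of 45 copies have the diamond at least 2-fold to the right, whereas in long RNA 5 of 15 have it at least 2-fold to the left and 2 to the right.

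One copy carried most of the mRNA signal. n-R5s193 (chr4:149817732-149817840, GRCm38) has a locus of 109 bases outside every other gene in the RefSeq table, which has no entry of its name. It stood at 405 FPKM in wild-type and 1458 FPKM in Drosha-deficient mRNA, a log2 difference of 1.85. Its share of the family's sum was 57.8% and 53.9%. Without it the other 110 copies summed to 295 and 1245 FPKM, a ratio of 4.22, so the difference was not smaller without the leading copy. The 10 highest copies held 92.6% of the sum in wild type and 86.2% in Drosha-deficient cells.

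The next 7 copies by mean level were all higher in the Drosha-deficient library except n-R5s28. n-R5s56 (chr13:103396202-103396306) stood at 41.9 and 221 FPKM, a log2 difference of 2.37. n-R5s194 (chr3:4338998-4339116), an rRNA gene in RefSeq, stood at 31.0 and 172 FPKM, a log2 difference of 2.44. n-R5s210 (chr1:37005439-37005557), a pseudogene in RefSeq, stood at 15.5 and 87.3 FPKM, a log2 difference of 2.42. n-R5s2 (chrX:6106891-6107009), an rRNA gene in RefSeq, stood at 25.4 and 83.6 FPKM, a smaller log2 difference of 1.68. n-R5s156 (chr7:99497718-99497822) stood at 12.5 and 74.2 FPKM, a log2 difference of 2.48. All 5 lie outside other RefSeq genes. n-R5s151 (chr7:16471813-16471931), which lies within the gene Npas1, stood at 30.3 and 64.4 FPKM, a log2 difference of 1.06.

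The copies with the largest differences were low in wild-type mRNA. n-R5s195 (chr3:39635964-39636082), an rRNA gene in RefSeq, stood at 2.11 and 57.7 FPKM, a log2 difference of 4.24. n-R5s64 (chr12:85718477-85718595) was listed at 0 in wild type and at 15.5 FPKM in Drosha-deficient cells. Its log2 difference of 4.05 therefore depends on the added 1 FPKM. n-R5s162 (chr6:60250792-60250910) stood at 0.705 and 25.2 FPKM, and n-R5s1 (chrY:991630-991748) at 2.82 and 54.7 FPKM. n-R5s88 (chr9:102127887-102128005), within the Ephb1 gene, stood at 3.58 and 58.0 FPKM, and n-R5s65 (chr12:90801619-90801735), within a long noncoding RNA gene, at 2.18 and 34.5 FPKM. For n-R5s1 the RefSeq table also lists a pseudogene over the copy, and for n-R5s64 an rRNA gene of another name.

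The opposite direction was seen in 3 measured copies. n-R5s28 (chr17:47848834-47848952), an rRNA gene in RefSeq, stood at 67.6 FPKM in wild-type and 25.9 FPKM in Drosha-deficient mRNA, a log2 difference of -1.35. Its wild-type level was the highest after that of n-R5s193. The other 2, n-R5s68 at 1.50 FPKM and n-R5s158 at 1.43 FPKM in wild type, were listed at 0 in Drosha-deficient cells. Of the 5 copies called neither, n-R5s155 was the highest, at 10.1 and 14.9 FPKM, and n-R5s13 stood at 5.64 and 8.14 FPKM.

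**Figure D2:**
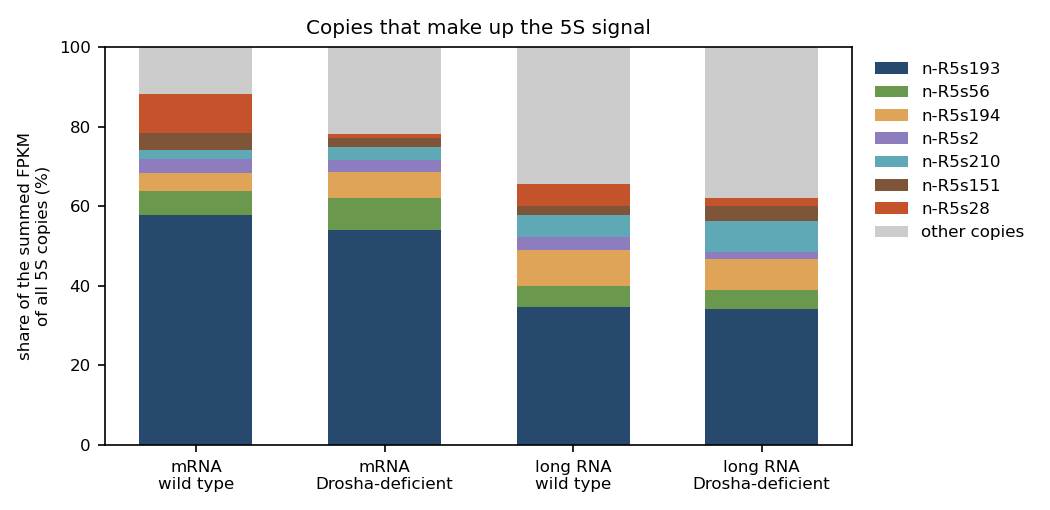
Share of the summed FPKM of all 5S copies (%, stacked to 100) taken by 7 named copies and by all others, in the 4 libraries of mRNA and long RNA. n-R5s193 holds the largest share in each library, 57.8% and 53.9% in mRNA and 34.6% and 34.1% in long RNA, and the share of n-R5s28 is smaller in both Drosha-deficient libraries.

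The values of copies that stood alone at their locus came in whole steps, from which the fragments behind them could be counted. At a length of 119 bases 1 fragment was worth 0.705 FPKM in wild-type and 0.740 FPKM in Drosha-deficient mRNA. Over the 72 lone copies the wild-type mRNA library held 808 fragments and the Drosha-deficient library 2845. The exact 95% Poisson intervals were 753 to 866 and 2741 to 2952, and they cover counting error only. Per 1000000 fragments this was 35.1 and 109, a ratio of 3.10 (2.86 to 3.35), which is smaller than the 3.86 of the summed FPKM. For rows of 900 to 1000 bases 1 fragment was worth less FPKM in the Drosha-deficient than in the wild-type library, whereas at 119 bases it was worth more. Reads that map to several copies may have been counted at each of them, which was not tested. Counts of single copies then need not be independent, and the intervals of sums over copies could be too narrow.

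Counting error was small for the leading copies and large for the lowest. n-R5s193 rested on 488 and 1626 fragments, a depth-scaled ratio of 2.93 (2.65 to 3.25), and n-R5s194 on 44 and 233, a ratio of 4.66 (3.36 to 6.58). n-R5s28 rested on 96 and 35 fragments, a ratio of 0.321 (0.211 to 0.477). The intervals of n-R5s193 and n-R5s194 did not overlap each other, and the interval of n-R5s28 lay on the other side of 1. n-R5s195 rested on 3 and 78 fragments, a ratio of 22.9 (7.54 to 113), and n-R5s162 on 1 and 34. n-R5s13 rested on 8 and 11 fragments, a ratio of 1.21 (0.443 to 3.46), so no difference was detectable for it at this depth. n-R5s68 rested on 1 fragment in wild type and 0 in Drosha-deficient cells, and its call rests on that single fragment.

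Length and annotation class went with whether a copy was seen at all. Of the 24 lone copies of 119 bases 20 were above 0 in mRNA, against 5 of the 21 that were 116 to 121 bases without being 119, and 9 of the 25 under 116 bases. All 10 copies that RefSeq classes by name as rRNA were above 0, as were 12 of the 14 classed as pseudogenes. Of the 87 without a RefSeq entry of their name 30 were above 0. The rRNA copies summed to 178 FPKM in wild-type and 502 FPKM in Drosha-deficient mRNA, 2.81-fold higher, with 8 of 10 called higher and 1 lower. The pseudogene copies summed to 26.9 and 243 FPKM, 9.03-fold higher, with 10 of 11 measured copies called higher and none lower. Both ratios depend on single copies. The rRNA sums include n-R5s28, lower at 67.6 and 25.9 FPKM, and n-R5s210 gave 15.5 and 87.3 FPKM of the pseudogene sums. Whether the classes differ was not tested. Of the 12 pseudogene copies above 0, 6 were above 0 in the Drosha-deficient library only, so a call of theirs could only be higher, and 5 were above 0 in both libraries. Copies without a RefSeq entry of their name, n-R5s1 and n-R5s64 among them, summed to 494 and 1959 FPKM. Copies that shared a locus with another gene were seen about as often as lone copies, 17 of 39 against 35 of 72. A shared locus does not mark every copy within a gene, since the lone copy n-R5s175 lies within a long noncoding RNA gene.

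Genes at the same loci did not show the difference of the copies that shared those loci. For the 8 copies called higher whose locus held another measured gene, the 10 genes there had log2 differences of -0.45 to 0.48 in mRNA, and none was called higher. Over all copies above 0, 13 genes at their loci were measured, with a median log2 difference of 0.01. Of these 2 were called higher, Nfib at 1.06 and Sec23ip at 1.02, and the copy in the Sec23ip locus, n-R5s158, was called lower. The labels do not say whether the authors' counting used the strand, so reads of a copy and of the gene around it may not be separated.

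Many other short genes and some structural RNAs were also higher in Drosha-deficient mRNA. Of 193 measured rows with loci of up to 200 bases that were neither 5S copies nor microRNA genes, 100 were higher (51.8%) and 29 lower (15.0%), and the median difference was 1.04 (log2). A row among them that reached 1 FPKM only in the Drosha-deficient library could not come out lower. All rows of such length summed to 5517 FPKM in wild-type and 16876 FPKM in Drosha-deficient mRNA, 3.06-fold higher, beside 3.86-fold for the 5S copies. They overlap with the structural RNAs below, since their highest Drosha-deficient value, 2517 FPKM, is that of n-R5-8s1. Of 7 other structural RNAs 4 were higher, none was lower and 3 were neither. The 5.8S rRNA gene n-R5-8s1, made by RNA polymerase I, stood at 348 and 2517 FPKM. Rn7sk, a polymerase III transcript that restrains elongation by polymerase II, stood at 129.9 and 1067 FPKM. Rmrp, the RNA of RNase MRP, stood at 17.4 and 99.9 FPKM, and the Y RNA gene Rny3 at 141 and 301 FPKM. The 3 called neither were Rny1 at 171 and 309.6 FPKM, Rpph1 at 48.5 and 37.4 FPKM, and Terc, the telomerase RNA, at 4.30 and 4.22 FPKM. The part in the 5S difference of the amount of RNA without a poly(A) tail in each mRNA library was not tested.

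**Figure D3:**
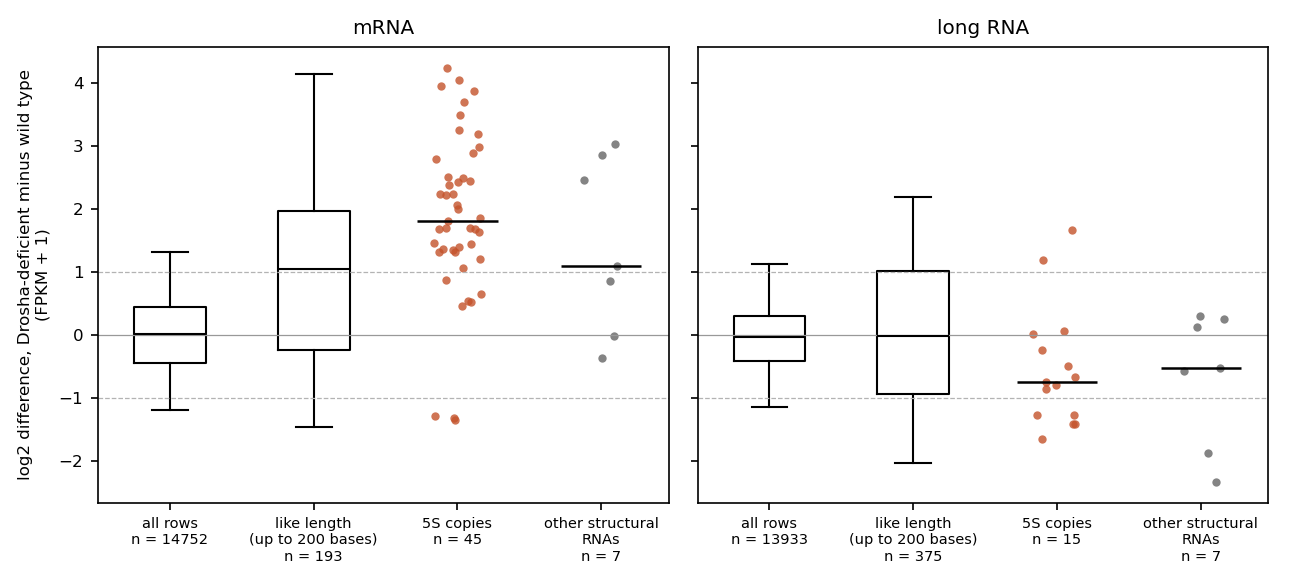
Log2 difference, Drosha-deficient minus wild type (FPKM + 1), in mRNA and long RNA for all measured rows, rows of like length, 5S copies and other structural RNAs. Boxes (all rows and rows of like length) show quartiles and median. Their whiskers reach the 5th and 95th percentiles, and values beyond are not drawn. Some structural RNAs are also rows of like length. The 5S copies and structural RNAs have 1 point per gene, shifted sideways for view, with a bar at the median. Dashed lines mark 2-fold. In mRNA the medians are 0.01, 1.04, 1.80 and 1.08, and in long RNA they are -0.04, -0.03, -0.75 and -0.52.

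In long RNA the family was lower in the Drosha-deficient library, at a far smaller number of fragments. Of the 111 copies 82 were listed at 0 in both libraries and 29 were above 0. Of those 29, 21 had the larger value in wild type and 8 in Drosha-deficient cells. Over all 26108 rows above 0 these counts were 13811 and 12297, and over 559 rows of like length 287 and 272. Summed over all copies, the level was 64.2 FPKM in wild-type and 37.5 FPKM in Drosha-deficient long RNA, 1.71-fold lower and a log2 ratio of -0.78. Of 15 measured copies 2 were higher (13.3%), 5 were lower (33.3%) and 8 were neither, beside 6.26% higher and 6.89% lower among all 13933 measured rows. The median log2 difference was -0.75, against -0.04 over all rows and -0.03 over 375 rows of like length. Of those 375 rows 25.9% were higher and 23.7% lower. A copy that reached 1 FPKM only in the wild-type library could not come out higher. All 5 copies called lower were of that kind. Among the 8 copies that reached 1 FPKM in the Drosha-deficient library, 2 were higher and 0 lower, their median being -0.12. Of all rows chosen that way 6.75% were higher and 5.08% lower. Of the 7 other structural RNAs 2 were lower in long RNA and none was higher, with a median of -0.52. These were n-R5-8s1 at 329.8 and 64.6 FPKM, which was higher in Drosha-deficient mRNA as many 5S copies were, and Rpph1, the RNA of RNase P, at 2519.6 and 683 FPKM.

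n-R5s193 was again the highest copy, at 22.2 FPKM in wild-type and 12.8 FPKM in Drosha-deficient long RNA, a log2 difference of -0.75. It held 34.6% and 34.1% of the sum. n-R5s194 stood at 5.69 and 2.86 FPKM, n-R5s56 at 3.50 and 1.84 FPKM and n-R5s2 at 2.13 and 0.716 FPKM. These 4 copies were all lower in Drosha-deficient cells, by less than 2-fold on the scale with 1 FPKM added. The copies called lower were n-R5s77 at 2.13 and 0 FPKM, n-R5s28 and n-R5s92 at 3.55 and 0.716 FPKM each, and n-R5s64 and n-R5s71 at 1.42 and 0 FPKM each. The copies called higher were n-R5s211 at 0 and 2.15 FPKM, and n-R5s15, in the locus of the noncoding RNA gene Kantr, at 1.59 and 4.93 FPKM. n-R5s210 stood at 3.55 and 2.86 FPKM, n-R5s156 at 2.63 and 2.77 FPKM and n-R5s151 at 1.42 and 1.43 FPKM, so these differed least.

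Behind the long RNA values stood 70 fragments in wild type (54.6 to 88.4) and 37 in Drosha-deficient cells (26.1 to 51.0) over the 72 lone copies. Per 1000000 fragments this was 3.62 and 1.59, a ratio of 0.439 (0.286 to 0.662). n-R5s193 gave 27 and 15 of these fragments, a ratio of 0.461 (0.228 to 0.898). n-R5s194 gave 8 and 4, n-R5s28 and n-R5s92 each gave 5 and 1, and n-R5s64 and n-R5s71 each gave 2 and 0. The ratio intervals of these 5 copies included 1, with 0.415 (0.0914 to 1.55) for n-R5s194 and 0.166 (0.00351 to 1.48) for n-R5s28. For single lone copies other than n-R5s193 a difference in long RNA was thus not detectable at this depth.

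The copies seen in both fractions mostly differed in opposite directions. A total of 24 copies were above 0 in both mRNA and long RNA, which is 46.2% of the 52 in mRNA and 82.8% of the 29 in long RNA. The same shares over all rows are not given here, so the overlap is not read as particular to the 5S copies. Of 13 copies measured in both, 9 had the larger value in Drosha-deficient mRNA and the smaller in Drosha-deficient long RNA, 3 had the larger value in both and 1 in neither. n-R5s71, n-R5s64 and n-R5s77 were called higher in mRNA (2.89, 4.05 and 2.99 on the log2 scale) and lower in long RNA (-1.28, -1.28 and -1.65). n-R5s28 was called lower in both fractions and n-R5s211 higher in both. For lone copies these calls in long RNA rest on few fragments, 2 and 0 for n-R5s71 and n-R5s64, 5 and 1 for n-R5s28 and 0 and 3 for n-R5s211, and their ratio intervals included 1. The 2 tables were normalized separately, so only differences within each are set side by side, and the difference between the fractions was not tested.

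In short RNA all 111 copies were listed at 0 in both libraries, and the authors marked each as not tested. None was therefore called, beside 14.8% of 2597 measured rows called higher and 18.4% called lower. The 5.8S gene n-R5-8s1 was also listed at 0 in both. There 6 other structural RNAs were measured, of which 5 were higher and 1, Rny1, was lower. A listing at 0 shows only that the table gives no signal, not that the RNA was absent.

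Among the genes that make 5S rRNA, that of TFIIIA was lower and that of a polymerase III subunit higher in both fractions. From a list of 25 genes for TFIIIA, TFIIIC, TFIIIB, RNA polymerase III and its repressor, 24 had a row of their own and all 24 were measured in mRNA and long RNA. In mRNA 1 was higher and 2 were lower, beside 8.64% and 7.93% of all rows, and the median log2 difference was 0.09. In long RNA 1 passed in each direction, beside 6.26% and 6.89% of all rows, and the median was 0.00. Counts this small against these shares show nothing particular to the list. Gtf3a, which encodes TFIIIA, stood at 27.5 FPKM in wild-type and 12.7 FPKM in Drosha-deficient mRNA, and at 20.9 and 9.90 FPKM in long RNA, log2 differences of -1.05 and -1.01. Polr3f, a polymerase III subunit, stood at 9.69 and 20.6 FPKM in mRNA and at 11.6 and 25.2 FPKM in long RNA, log2 differences of 1.02 and 1.06. Thus these 2 genes were called the same way in both fractions, in opposite directions from each other. Polr1d, a subunit shared by polymerases I and III, was lower in mRNA (81.1 and 37.9 FPKM, -1.08) but not in long RNA (9.12 and 7.57 FPKM, -0.24). Maf1, the repressor of polymerase III, stood at 48.6 and 51.1 FPKM in mRNA, and the shared subunit Polr1c at 99.5 and 89.8 FPKM.

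Among 12 genes for the proteins that bind 5S rRNA, their assembly factors and Mdm2, 1 was higher and none lower in both mRNA and long RNA, with medians of 0.12 and 0.08. That is near the 8.64% and 6.26% of all rows called higher in these fractions. Rpl11 stood at 27.5 FPKM in wild-type and 94.4 FPKM in Drosha-deficient mRNA, and at 12.4 and 69.9 FPKM in long RNA, log2 differences of 1.74 and 2.40. Its partner Rpl5 stood at 332 and 246 FPKM in mRNA and at 134 and 87.9 FPKM in long RNA, so both proteins' genes differed in opposite directions and only that of Rpl11 passed 2-fold. Ribosomal protein genes have near-identical processed pseudogenes, so these values are uncertain where reads could be split between them. Mdm2 stood at 82.4 and 83.4 FPKM in mRNA. In short RNA 5 of the 12 rows were measured and 2 were lower, beside 18.4% of all rows. Among them was the row of Rpl5 at 68306 and 1118 FPKM. Which short RNA that row holds was not tested, so it is not read as a level of Rpl5 mRNA. Of 20 genes for the La and Ro proteins, trimming enzymes and the exosome, 19 were measured and none was called in mRNA or long RNA, with medians of -0.06 and -0.05, beside the shares of all rows given above. Ssb, which encodes the La protein that binds the ends of new polymerase III transcripts, stood at 164 and 131 FPKM in mRNA.

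**Figure D4:**
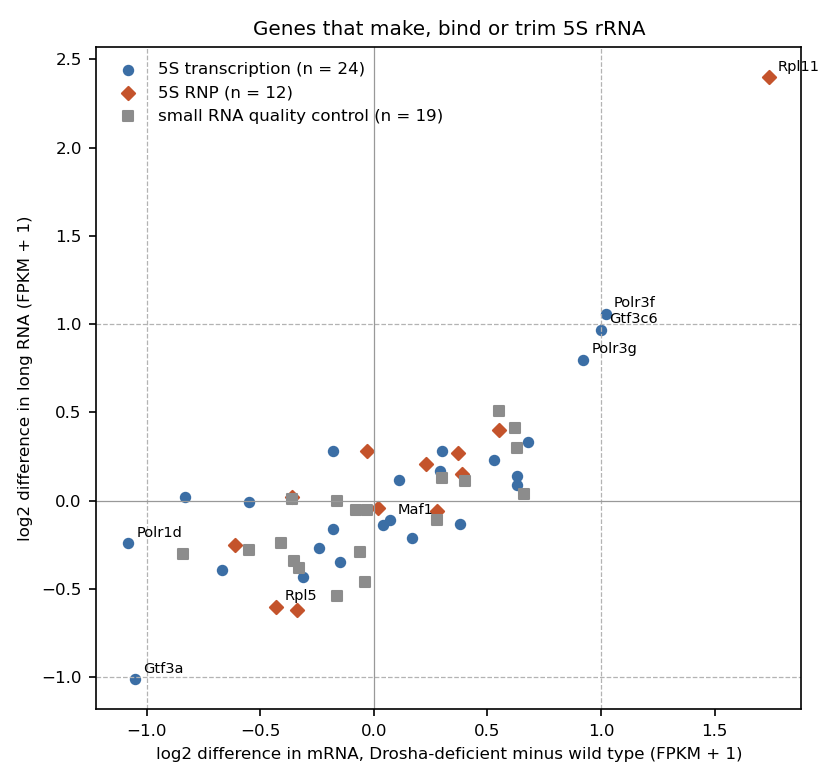
Log2 difference, Drosha-deficient minus wild type (FPKM + 1), in mRNA (horizontal axis) against long RNA (vertical axis) for genes that make, bind or trim 5S rRNA, 1 point per gene; dashed lines mark 2-fold. Polr3f and Rpl11 lie beyond 2-fold higher and Gtf3a beyond 2-fold lower in both fractions, and most points lie within the dashed lines.

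The authors' deposited table marks none of the 111 copies as significant in any fraction. Over all rows it marks 19 in mRNA, 19 in long RNA and 85 in short RNA. The lowest q-value of a copy in mRNA in the authors' deposited table is 0.522, for n-R5s64.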

How the data were processed

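RNA was sequenced from wild-type and Drosha-deficient ES cells, in 3 fractions with 1 library each. Per the labels' protocols, libraries were made with a small RNA kit. The tools named in the submitters' processing notes are TopHat2 2.0.10, Cuffdiff, Cufflinks 2.1.1 and bcl2fastq 1.8.4, with the build mm10 (GRCm38). The authors deposited 3 tables of FPKM values with wild type first, per the file headers. These tables also hold the authors' log2 fold changes, p-values and q-values and their test statistic, a score; of these only the authors' q-values are reported. As FPKM are normalized values, count tests were left out. Log2 differences were computed with a pseudocount of 1 FPKM. This scale understates differences of low genes. Measured rows had status OK and at least 1 FPKM in 1 library.

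Fragments were recovered from FPKM as whole multiples of the value of 1 fragment at a row's length. Of 82 values of lone copies above 0, 55 were above the lowest row of their length, and all 55 were whole within 0.02. The other 27 were the lowest of their length, which sets the step itself, so wholeness could not be checked for them. Depth was estimated in the same way. Exact Poisson intervals of counts and exact binomial intervals of ratios (95%) cover counting error only, with each fragment taken as counted once. The steps were tested on simulated data with python 3.11.15, numpy 2.4.6, pandas 2.3.3 and scipy 1.17.1.

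Named copies were at most the 12 highest per table and the 6 largest differences in each direction, all of at least 1 FPKM in 1 library. Pathway genes named were those called and up to 3 others of high level. Some further copies and genes were named after their values were seen. The members and lists were chosen with earlier results of these data known. Alternatives were another pseudocount, minimum level, status filter, fold, scaling and sum. No sequence of the copies was used here.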

Additional observations from a re-analysis of the deposited data

Results flagged for a closer look

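The summed level of the 5S copies differed between genotypes in opposite directions in the 2 fractions. The log2 ratio, Drosha-deficient over wild type, was 1.95 in mRNA and -0.78 in long RNA. With 1 library per genotype and fraction this difference was not tested. In mRNA 47 of 52 copies above 0 had the larger value in Drosha-deficient cells, and in long RNA 8 of 29.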

How the results depend on the processing

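No median or ratio of sums changed sign under any alternative that gave a value, but the balance of the long RNA calls did change. In mRNA 37 of 45 measured copies were higher and 3 lower, beside 8.64% and 7.93% of all rows. A pseudocount of 5 left 20 and 1 of 45, beside 3.74% and 2.53%. A minimum of 5 FPKM left 23 and 1 of 27, beside 9.13% and 7.41%. A 3-fold limit left 28 and 0 of 45, beside 3.48% and 1.80%. A minimum of 1 FPKM in the wild-type library, chosen after seeing the data, left 19 and 3 of 25, beside 6.65% and 8.38%. That minimum in the Drosha-deficient library, also chosen after seeing the data, left 37 and 1 of 43, beside 9.31% and 6.06%. The median of 1.80 became 3.13 with a pseudocount of 0.1, 0.84 with 5, 1.68 with no minimum and 2.42 with a minimum of 5 FPKM. It was 2.22 with the wild-type minimum and 1.85 with the Drosha-deficient minimum. The log2 ratio of the sums, 1.95, became 2.08 without n-R5s193 and 1.63 by depth-scaled fragments of lone copies, also chosen after seeing the data. In long RNA 2 of 15 measured copies were higher and 5 lower, beside 6.26% and 6.89% of all rows. A pseudocount of 5 left 0 and 0 of 15, beside 2.26% and 2.40%. A minimum of 5 FPKM left 0 and 0 of 2, beside 6.01% and 7.18%. A 3-fold limit left 1 and 1 of 15, beside 2.51% and 1.94%. The wild-type minimum left 1 and 5 of 14, beside 4.01% and 7.30%. The Drosha-deficient minimum left 2 and 0 of 8, beside 6.75% and 5.08%. The median of -0.75 became -0.90 with a pseudocount of 0.1 and -0.32 with 5. It was -0.77 with no minimum, with a minimum of 5 FPKM and with the wild-type minimum, and -0.12 with the Drosha-deficient minimum. The log2 ratio of the sums in long RNA, -0.78, ran from -1.19 to -0.74. The moves of counts and medians follow from the settings, which change how low values count and how many copies enter. Summed FPKM of lone copies gave 1.92 in mRNA and -0.86 in long RNA, so most of the move by depth-scaled fragments came with fragments in place of FPKM. In short RNA the counts were 0 under all alternatives, and the sum and median gave no value. No paired analysis was possible because each genotype has 1 library per fraction and no test was made. Depth limits the long RNA values, which rest on 70 and 37 fragments.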
